A study of Mus musculus with 11 samples.

Results

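The comparison sets bile duct cells of mice that had recovered from a cholestatic diet against those of mice that were never injured. It covered 7 of the 11 libraries in the series, 3 of the recovered group, called R15, and 4 of the Control group. Genes were tested if at least 3 libraries reached an FPKM of 1, which kept 15264 of 43346 genes. FPKM scales the fragments counted for a gene to its length and to the depth of the library. The question is which transcripts were still different after recovery, and how each of them stood beside the transcripts of macrophages and of the pancreas that some libraries also held.

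Wild-type C57BL/6 male mice were used, 14 to 16 weeks old, and each library came from another mouse. Control mice ate chow. R15 mice ate the DDC diet for 10 days and then chow for 15 days. A DDC group (4 libraries, 10 days of diet without recovery) shared the fit, and its values are given beside those of R15 where they help to place them. The cells were taken from liver with beads that bind EpCAM, so any cell that carries EpCAM or sticks to the beads could enter a library. Only wild-type males of 1 strain and 1 recovery time were studied, and p-values measure the spread between the mice of these groups.

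Cholangiocytes line the bile ducts and modify bile. When bile flow is blocked or the ducts are injured they multiply and take on a reactive state, in which they secrete chemokines, matrix and growth factors that act on macrophages, stellate cells and neighbouring epithelium. The DDC diet blocks the last step of heme synthesis, and the porphyrin that builds up plugs small ducts. Return to chow removes the insult, and the ductular reaction recedes. NF-Y, the factor named in the series title, is a trimer of NF-YA, NF-YB and NF-YC that binds the letters CCAAT in promoters and is best known for driving cell cycle genes.

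Of the 15264 genes tested, 1463 (9.58%) differed between R15 and Control with limma at an adjusted p under 0.05. Of these, 1048 (6.87% of genes tested) were higher in R15 and 415 (2.72%) were lower. Most differences were small, with a median absolute log2 difference of 0.38 among the genes called. A log2 difference of at least 1 was found for 126 higher genes (0.825%) and 15 lower genes (0.0983%). The R15 libraries all lay above the Control libraries in 2289 genes (15.0%), all below them in 961 (6.30%), and apart in either direction in 3250 (21.3%). Among the genes called, 1437 of 1463 had groups that did not overlap. The balance of directions moved with the scaling: 71.6% of called genes were higher on the FPKM as deposited, 55.9% with quantile normalization (594 higher, 468 lower) and 43.6% with median-of-ratios scaling (622 higher, 804 lower). None of the 1463 genes changed sign under any alternative run.

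**Figure D1:**
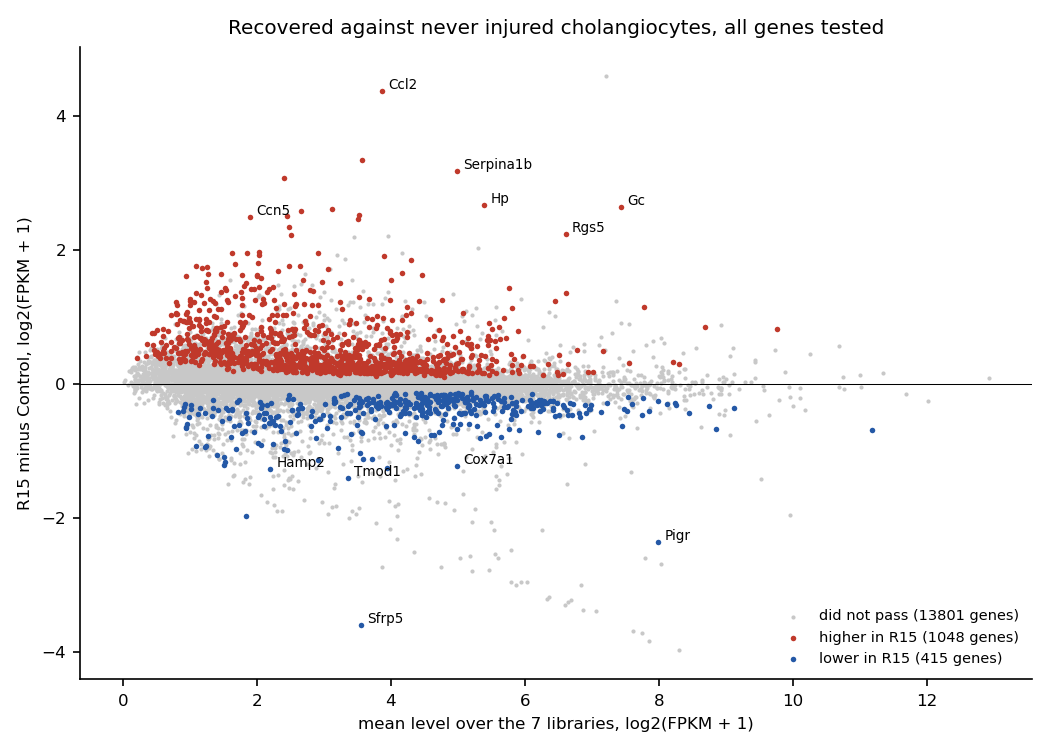
All 15264 tested genes, with the mean log2(FPKM + 1) over Control and R15 on the x axis and the log2 difference R15 minus Control on the y axis. Coloured points are the 1048 genes called higher and the 415 called lower, and the labelled extremes run from Ccl2 at 4.37 down to Sfrp5 at -3.61.

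The libraries held cholangiocyte RNA and, in part of them, RNA of other cells. The 22 cholangiocyte markers summed to 10985 to 13582 FPKM in Control and 11346 to 12546 in R15. Epcam had a mean of 290 ± 24.2 FPKM in the Controls (SD, n = 4) and of 294 ± 9.19 in R15 (SD, n = 3). The osteopontin gene Spp1 had means of 7570 ± 1491 and 7972 ± 555. The summed macrophage markers lay between 249 and 312 FPKM in Control, at 274 in R15 1 and 334 in R15 3, but at 1239 in R15 2. The Kupffer cell gene Clec4f shows the same library, with 4.24, 54.0 and 4.95 FPKM in R15 1 to 3 and 6.05 to 10.5 in Control. Pancreatic acinar markers summed to 10622, 2837, 1368 and 31.9 FPKM in Control 1 to 4 and to 24.8, 14.1 and 1754 in R15 1 to 3. Gastric mucous genes stood apart in Control 3, at 11364 FPKM against 165 or less in the other 6 libraries. R15 1 therefore had macrophage transcripts inside the Control range and acinar transcripts below every Control, and Control 4 was the Control library with the fewest acinar transcripts. In bulk RNA, fewer cells of a type and less RNA per cell cannot be told apart.

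**Figure D2:**
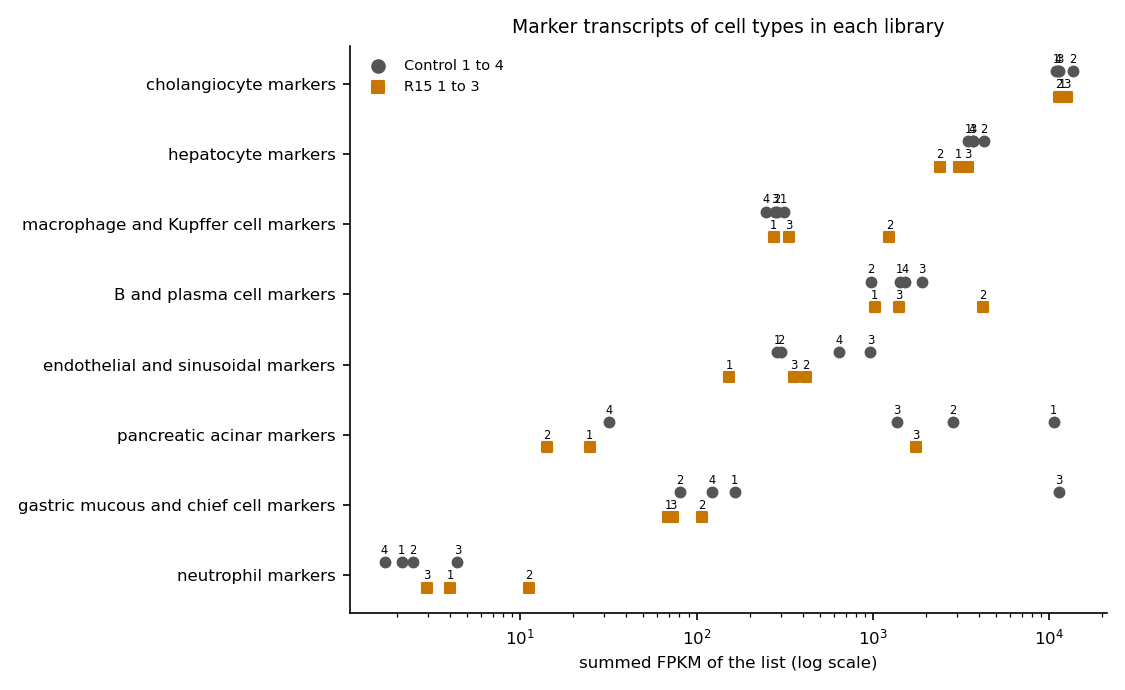
Summed FPKM (x axis, log scale) of 8 cell type marker lists (rows) in each Control library (circles) and R15 library (squares), with the replicate number beside each point. Macrophage markers stand out in R15 2 at 1239 FPKM, and acinar markers range from 14.1 in R15 2 to 10622 in Control 1.

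The 12 largest rises among genes with a mean of at least 5 FPKM in R15 were mostly of secreted and immune proteins. Ccl2 encodes the chemokine that draws monocytes through their receptor CCR2 (chromosome 11, 82035571 to 82037453, mm10). It stood at 0.636, 0.745, 0.304 and 0.340 FPKM in Control 1 to 4 and at 31.0, 40.5 and 21.3 in R15 1 to 3. No library of one group came near the other, and R15 1, with no excess of macrophage markers, held as much as the group's mean. The log2 difference was 4.37 ± 0.19 (SE; limma adjusted p = 4.5e-06). In DDC the mean was 207 ± 24.2 FPKM (SD, n = 4), so the R15 level lay between the other groups. Ccl7, a neighbouring chemokine gene with the same receptor, stood at 0.170 ± 0.108 FPKM in Control and 1.48 ± 0.611 in R15.

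Cpe and Ltbp2 had the same order of groups. Cpe encodes carboxypeptidase E, which trims peptide hormones. Its levels were 0.504, 0.855, 0.969 and 0.906 FPKM in Control and 8.54, 11.3 and 8.08 in R15, a log2 difference of 2.51 ± 0.12 (limma adjusted p = 4.9e-06). Ltbp2, a matrix protein of the latent TGF-beta binding family, stood at 0.597 to 1.75 FPKM in Control and 8.62 to 13.2 in R15 (2.59 ± 0.18). Their DDC means were 44.0 and 23.8 FPKM. Rgs5, which encodes a regulator of G protein signalling and is often used as a pericyte marker, stood at 34.3, 57.6, 30.9 and 27.3 FPKM in Control and 168, 200 and 157 in R15 (2.24 ± 0.21). Its level was even across the R15 mice, unlike other mural genes: Acta2 read 0.963, 16.3 and 1.94 FPKM and Myh11 0.317, 5.88 and 0.614 in R15 1 to 3.

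Ubd and Ccn5 complete the rises outside the plasma protein genes. Ubd encodes the ubiquitin-like protein FAT10, which TNF and interferon gamma induce. Its levels were 5.35, 3.12, 2.99 and 0.958 FPKM in Control and 16.4, 23.6 and 20.1 in R15 (log2 difference 2.46 ± 0.32, limma adjusted p = 0.0021). Ccn5, a matricellular protein gene also called Wisp2, stood at 0.140 to 0.369 FPKM in Control and at 6.28, 6.53 and 5.36 in R15 (2.49 ± 0.15). All R15 libraries were far above Control, and the R15 mean of 6.06 ± 0.612 (n = 3) stood beside 4.39 ± 1.19 in DDC (n = 4).

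A further group encodes plasma proteins that hepatocytes are best known to secrete. Serpina1b, an alpha-1-antitrypsin gene, stood at 6.97, 10.99, 4.81 and 3.46 FPKM in Control and at 62.1, 59.7 and 66.9 in R15, a log2 difference of 3.18 ± 0.28 (limma adjusted p = 0.00027). Hp (haptoglobin) stood at 6.79 to 22.2 FPKM in Control and 63.7 to 93.1 in R15 (2.66 ± 0.31). Gc, the vitamin D binding protein, stood at 37.8 to 86.2 and 286 to 355 FPKM (2.64 ± 0.23). The choice of these genes asked for no overlap between groups. Within Control, Serpina1b, Hp and Gc were highest in Control 2 and lowest in Control 4. C1s1, a protease of the first complement component, stood at 0.999 to 2.32 FPKM in Control and 12.0 to 18.4 in R15 (2.61 ± 0.23). Fgb (fibrinogen beta chain) stood at 1.19 to 5.52 and 17.3 to 24.3 (2.52 ± 0.33), and F12 (coagulation factor XII) at 0.516 to 1.65 and 5.90 to 12.5 FPKM (2.34 ± 0.29). In DDC, Serpina1b (25.8 FPKM), C1s1 (4.09) and F12 (3.35) had lower means than in R15, while Hp (169) and Gc (788) had higher ones. The alpha-1-antitrypsin genes are near-identical copies, and the Serpina1b entry also spans Serpina1d, so how reads were shared among them is uncertain.

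**Figure D3:**
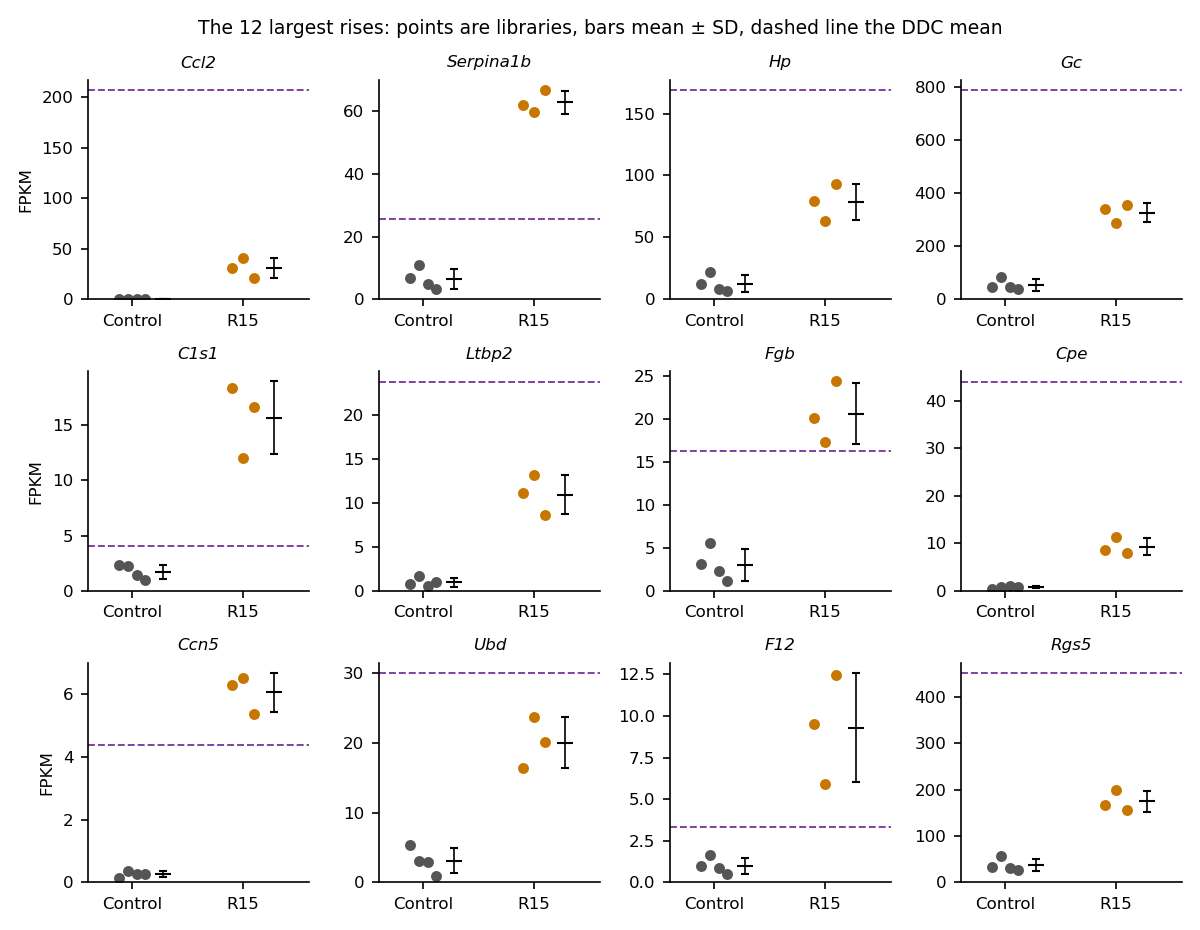
FPKM (y axis, linear) of the 12 largest rises, with 1 point per Control and R15 library, bars for the mean ± SD of the group and a dashed line at the DDC mean. In each of the 12 genes the 3 R15 points lie above the 4 Control points, as the choice of genes required. For Ccl2 they lie at 21.3 to 40.5 against 0.304 to 0.745.

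Other hepatocyte transcripts did not all share the direction of these plasma protein genes. The 22 hepatocyte markers summed to 3463 to 4283 FPKM in Control and 2405 to 3465 in R15. Alb, the albumin gene, stood at 2385, 3117, 2750 and 2839 FPKM in Control and at 1770, 1432 and 1990 in R15, a log2 difference of -0.69 ± 0.19 (limma adjusted p = 0.046). Of the 22 members 7 rose and 2 fell, where 6.87% of all genes tested rose and 2.72% fell. The median log2 difference was 0.29, beside 0.05 over all genes tested. Besides Hp and Fgb, the risers were Serpina1a (1.91), Apob (1.24), Serpina1c (1.23), Tat (0.99) and Fga (0.81). Apob, the backbone of very low density lipoprotein, read 10.6, 15.3, 12.0 and 11.6 FPKM in Control and 34.9, 21.4 and 37.2 in R15. Ttr (transthyretin) fell with Alb, by 0.43 on the log2 scale. The count of risers was 5 to 9 with single libraries left out, and the falls of Alb and Ttr were never both called in those fits. Complement genes rose in 4 of 14 cases (median 0.14), beside the same 6.87% of all genes tested. They were C3 (from 653 ± 75.1 to 1143 ± 64.3 FPKM), Cfi (from 39.0 ± 4.74 to 56.5 ± 6.06), Cfb (from 78.3 ± 9.34 to 106 ± 8.39) and C1s1. In none of these 4 was R15 2 the highest of the R15 libraries, beside 439 of all 1048 genes called higher. The complement count was 2 without R15 1 and 2 with Control and R15 alone in the fit.

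Several genes of the NF-kB pathway were called higher in R15, and none was called lower. NF-kB dimers are held in the cytoplasm by inhibitors until signals such as TNF or lymphotoxin free them, and they induce adhesion molecules, chemokines and their own subunits. Of the 20 tested members of this list, 8 were called higher and 0 lower, where 6.87% of all genes tested rose. The median log2 difference was 0.48 beside 0.05 over all genes. At an unadjusted p under 0.05, 12 members were higher and 1 was lower. Without Control 2, 1 member was called lower. The subunit genes were Relb (11.6 ± 0.627 FPKM in Control, 19.8 ± 1.73 in R15), Nfkb2 (28.5 ± 1.17 and 43.2 ± 6.21) and Nfkb1 (34.5 ± 1.76 and 44.3 ± 2.90). Vcam1, an adhesion molecule for leukocytes, stood at 36.2, 24.02, 29.6 and 30.8 FPKM in Control and at 69.0, 109 and 73.6 in R15 (log2 difference 1.43 ± 0.17, limma adjusted p = 0.0012). The others were the adhesion molecule Icam1 (0.68), the inhibitor Nfkbie (0.59), the TNF receptor Tnfrsf1b (0.80) and Birc3 (0.58), which restrains cell death downstream of TNF receptors. In all 8 genes R15 2, the library with the macrophage markers, was the highest R15 library. That was so for 439 of all 1048 genes called higher. R15 1 also lay above every Control library in all 8, but so it did in 1046 of the 1048. Without R15 2, 7 members rose. With the macrophage score as a covariate 7 rose, with the acinar score 5, and with both 3.

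The reactive secretome list holds cytokines, growth factors and matrix regulators that injured bile ducts are known to release. Of its 33 tested members 10 rose and 2 fell (median 0.33), where 6.87% of all genes tested rose and 2.72% fell. Beside Ccl2 and Ccl7 the risers were Ccn1 (1.36), Cxcl1 (1.30), Timp1 (0.88), Pdgfb (0.77), Edn1 (0.73), Csf1 (0.70), Cxcl16 (0.68) and Tgfb2 (0.67). Ccn1, a matricellular target of YAP, stood at 52.2, 68.6, 53.6 and 53.2 FPKM in Control and at 161, 174 and 112 in R15, and its DDC mean was 109 ± 20.01. Cxcl1, a neutrophil chemokine, stood at 3.66 to 7.47 FPKM in Control and 11.3 to 22.97 in R15. Timp1, an inhibitor of matrix proteases, stood at 0.543, 0.604, 0.731 and 0.536 FPKM in Control and at 1.62, 2.89 and 1.52 in R15, all of it low beside 18.03 ± 2.87 in DDC. Pdgfa (-0.32) and Il18 (-0.36) fell. In 9 of the 10 risers R15 2 was the highest R15 library, beside 439 of all 1048 genes called higher. In all 10 R15 1 lay above every Control library, as in 1046 of the 1048. The count of risers was 7 without R15 2 and 7 to 10 over all single libraries left out, 6 with the acinar covariate and 4 with both. Both falls together were called in 1 of the 11 fits that leave out a library, the one without DDC 4.

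A part of the genes of the ductular reaction and of the extracellular matrix rose, where 6.87% of all genes tested did. In the ductular and progenitor list 7 of 22 tested members rose and 1 fell (median 0.22), and in the matrix list 7 of 21 rose and 0 fell (median 0.15). Integrin subunit Itga2, a collagen receptor, stood at 1.14 to 2.15 FPKM in Control and 6.68 to 8.33 in R15 (log2 difference 1.68 ± 0.12). The integrin subunit Itgav rose to 2.00 times its Control mean, with 32.2, 32.1 and 32.5 FPKM in R15 against 13.9 to 18.1. Lamb3, a laminin chain that both lists hold, stood at 9.25 ± 1.05 and 17.3 ± 1.63 FPKM. Prom1, a stem cell marker, fell from 138 ± 8.56 to 106 ± 3.17 FPKM. Among matrix genes the chains of collagen IV, the main collagen of basement membranes, rose by 0.44 (Col4a1), 0.37 (Col4a2) and 0.73 (Col4a6). R15 2 was the highest R15 library in 5 of the 7 ductular and 6 of the 7 matrix risers. Among all 1048 genes called higher it was so in 439. R15 1 lay above every Control library in all of these risers, as in 1046 of the 1048. Each count of risers stayed between 5 and 8 with single libraries left out. With both covariates 4 ductular and 3 matrix genes rose.

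**Figure D4:**
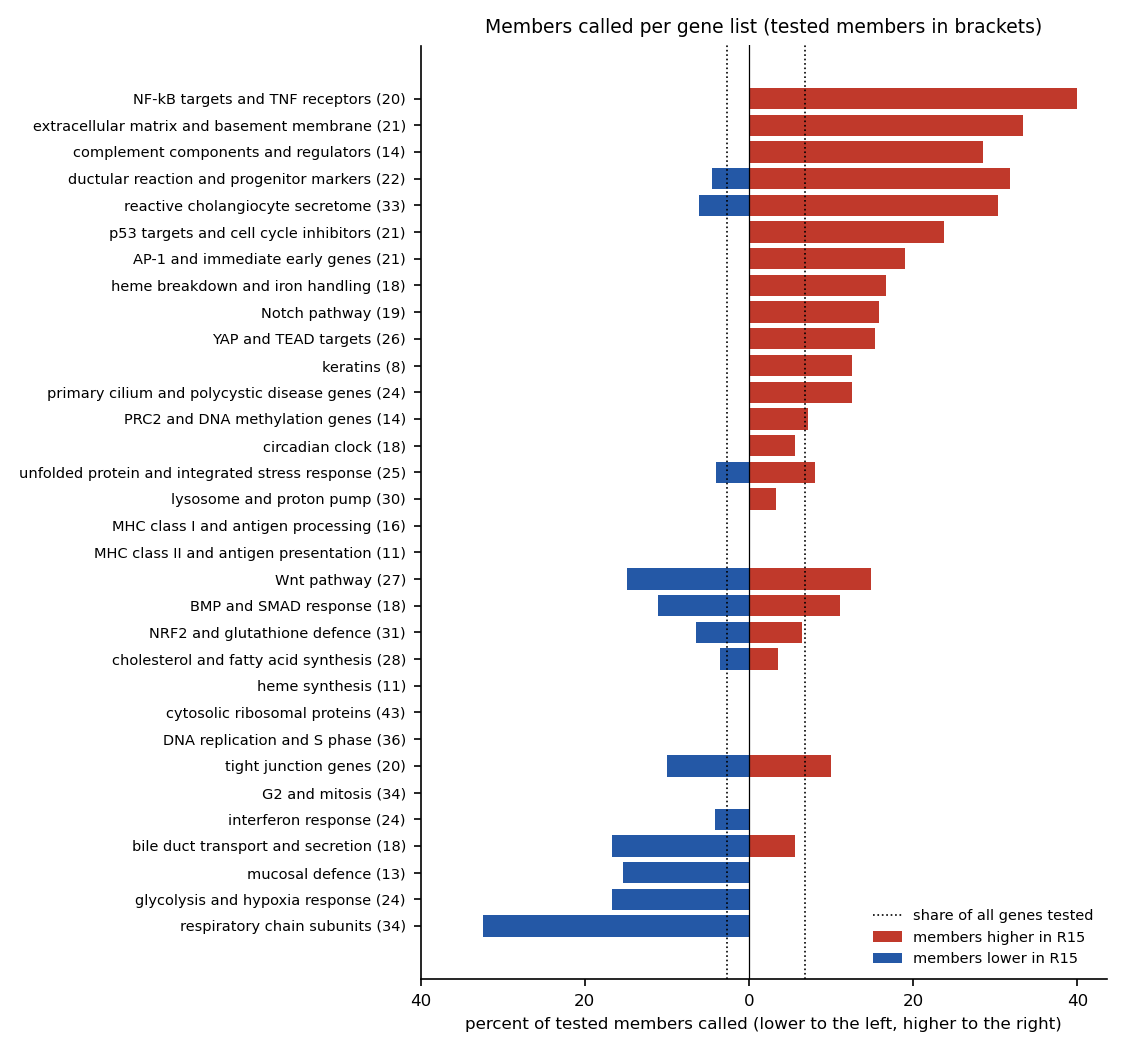
Share of tested members called higher and lower in R15 (x axis, percent of tested members) for the pathway and function lists with at least 8 tested members (their number in brackets), with dotted lines at the shares over all 15264 genes. NF-kB genes (8 of 20 higher) and respiratory chain subunits (11 of 34 lower) stand at opposite ends, and cell cycle lists have no called member.

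The window before the transcription start of 3 of these genes is shown because it holds letters that fit the NF-kB consensus, the published motif of NF-kB dimers. Capitals mark the matches, found on either strand, and all sequences are from RefSeq on GRCm38.p6, with the 250 bases before the start on the plus strand. Nfkb2 is at chr19:46304487-46304736, with 3 matches of which the first 2 overlap, Cxcl1 at chr5:90890995-90891244, with 2 overlapping matches, and Ubd at chr17:37193642-37193891, with 1 match.
Nfkb2: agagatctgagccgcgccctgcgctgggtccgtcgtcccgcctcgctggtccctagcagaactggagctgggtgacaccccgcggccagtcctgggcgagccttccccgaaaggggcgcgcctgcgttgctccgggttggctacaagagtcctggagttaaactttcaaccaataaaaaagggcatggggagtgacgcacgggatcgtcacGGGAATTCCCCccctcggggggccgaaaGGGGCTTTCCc
Cxcl1: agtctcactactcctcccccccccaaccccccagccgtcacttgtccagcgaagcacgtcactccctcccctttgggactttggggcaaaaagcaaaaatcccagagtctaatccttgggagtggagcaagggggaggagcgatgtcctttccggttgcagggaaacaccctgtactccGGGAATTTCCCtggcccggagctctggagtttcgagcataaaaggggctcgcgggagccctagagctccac
Ubd: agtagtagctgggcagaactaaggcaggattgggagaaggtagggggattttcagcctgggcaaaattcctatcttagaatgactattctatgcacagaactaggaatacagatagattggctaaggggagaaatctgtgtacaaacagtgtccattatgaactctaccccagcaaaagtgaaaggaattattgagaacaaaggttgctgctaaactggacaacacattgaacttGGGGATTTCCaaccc
In windows of 300 bases, which add 50 bases after the start, the NF-kB letters were found in 13.6% of the 956 windows of genes called higher. The share was 9.36% for the 374 windows of genes called lower, 10.5% for all 13294 windows of genes tested and 8.46% for all 32851 windows of the RefSeq table. Of the 8 NF-kB list genes called, 5 had a window, and Nfkb2 and Nfkbie held a match while Birc3, Icam1 and Tnfrsf1b did not. A match describes the letters only.

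Among the genes called, Sfrp5 had the largest fall. It encodes a secreted protein that binds Wnt ligands and keeps them from their receptors (chromosome 19, 42197971 to 42202252, mm10). Its levels were 19.3, 17.3, 15.8 and 20.8 FPKM in Control and 1.00, 0.231 and 0.578 in R15, a log2 difference of -3.61 ± 0.15 (SE; limma adjusted p = 4.3e-06). The R15 mean was 0.0330 times the Control mean. Control 4, nearly free of acinar transcripts, had the highest level, and in DDC the gene was at 0.0399 ± 0.0435 FPKM (n = 4). Sfrp5 was thus closer to its DDC level than to its Control level after 15 days on chow. Atoh8, a transcription factor that BMP signals induce, stood at 48.4, 56.6, 46.6 and 52.7 FPKM in Control and at 32.7, 27.0 and 28.3 in R15 (-0.78 ± 0.08), with 1.79 ± 0.131 in DDC. Its R15 mean lay nearer to the Control mean than to the DDC mean.

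Cldn10 and Pigr concern the paracellular barrier and secretory immunity. Cldn10 encodes a claudin that forms ion pores in tight junctions. It stood at 4.24, 4.54, 3.89 and 4.36 FPKM in Control and at 0.378, 0.175 and 0.478 in R15 (log2 difference -1.97 ± 0.12, limma adjusted p = 2.8e-05), and at 0.126 ± 0.172 in DDC. The tight junction list otherwise split, with Cldn1 (0.80) and Cldn4 (0.65) up and Cldn8 (-0.22) down among 20 tested members (median -0.07). Over all genes tested 6.87% rose and 2.72% fell. With single libraries left out 1 to 2 members of the list rose and 1 to 4 fell. Pigr, the receptor that carries IgA across the duct epithelium into bile, stood at 442, 234, 446 and 430 FPKM in Control and at 65.2, 64.7 and 88.0 in R15 (-2.37 ± 0.49, limma adjusted p = 0.018). Control 2 lay apart from the other Controls but still far above all R15 libraries. Among 13 mucosal defence genes Pigr and Muc1 (-0.63) fell and 0 rose (median -0.80), where 2.72% of all genes tested fell. Among the libraries with the fewest acinar transcripts, Control 4 read 430 FPKM of Pigr and R15 1 and R15 2 read 65.2 and 64.7. The call was lost without R15 2 and with the acinar covariate. Without Control 2, 6 mucosal genes were lower, and without R15 1 none was.

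The other large falls were of mixed function. Tmod1, which caps actin filaments, stood at 12.2, 14.6, 10.6 and 14.2 FPKM in Control and at 5.33, 3.12 and 4.44 in R15 (-1.41 ± 0.16). Hamp2, a relative of the iron hormone hepcidin, stood at 4.39 to 6.59 and 1.29 to 1.66 FPKM (-1.27 ± 0.13), and the LIM domain gene Lmcd1 at 16.4 to 26.7 and 6.60 to 9.05 (-1.25 ± 0.17). Capn6, a calpain without protease activity, stood at 5.95 ± 0.461 and 2.50 ± 0.382 FPKM (-0.99 ± 0.10). No overlap between groups was a condition for the choice of these 4 genes. Control 4 stood above the other Controls in Lmcd1, at 26.7 FPKM against 16.4 to 17.7. Cox7a1, a subunit of cytochrome c oxidase, read 66.5 FPKM in Control 1, the library with the most acinar transcripts, 28.5 to 39.4 in the other Controls and 14.6 to 17.9 in R15 (-1.22 ± 0.23). Ces1g, a carboxylesterase of lipid metabolism, read 5.68 to 13.5 and 2.70 to 3.99 FPKM (-1.13 ± 0.27). Nr0b2 encodes SHP, the repressor that bile acids induce through FXR. It read 25.0, 13.1, 11.6 and 14.7 FPKM in Control and 5.37, 4.96 and 10.2 in R15 (-1.13 ± 0.29, limma adjusted p = 0.039), with its highest Control value again in Control 1. Mgat3, a glycosyltransferase, fell by 1.12 and the transporter-like gene Mfsd4a by 0.97 on the log2 scale. An entry named Mir6973b fell by 1.04; it lies inside Gfra4, a receptor gene for a neurotrophic factor that itself was called lower (-0.73), and mRNA libraries do not measure mature miRNAs.

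**Figure D5:**
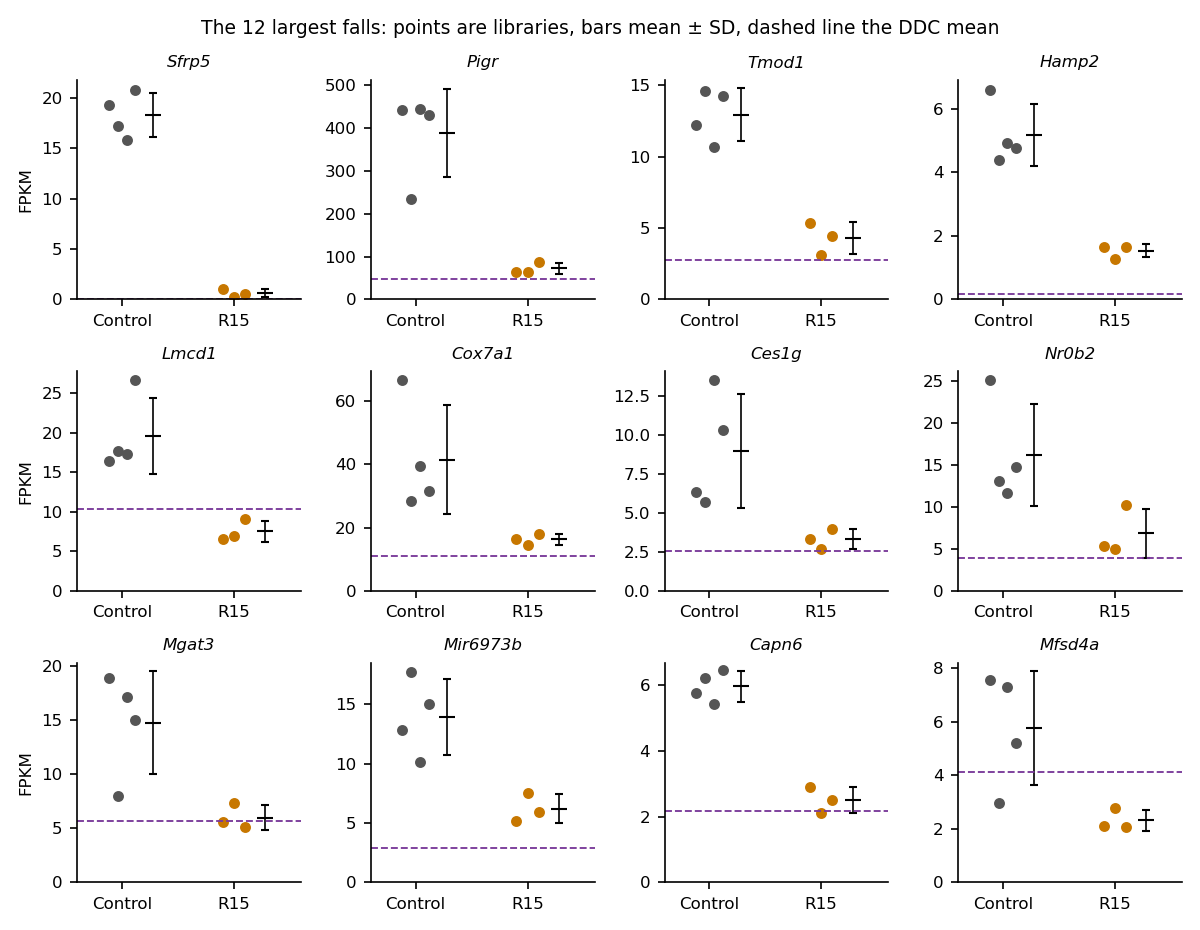
FPKM (y axis, linear) of the 12 largest falls, drawn the same way, with 1 point per library, bars for the mean ± SD and a dashed line at the DDC mean. All R15 points lie below all Control points, as the choice of genes required. For Sfrp5 they lie at 0.231 to 1.00 against 15.8 to 20.8.

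The 24 genes were then set against macrophage and pancreatic transcripts one by one. The choice of the 12 rises asked for no overlap, so R15 1 above every Control library was fixed in advance. All 12 were still called without R15 2 and with the macrophage score, the acinar score or both as covariates. Their log2 differences ran from 2.14 to 4.16 without R15 2 and from 2.24 to 4.17 with both scores. The choice of the 12 falls likewise fixed R15 1 and R15 2 below Control 4. These are the libraries with the fewest acinar transcripts, but their order is no check on those transcripts. Without R15 2 the calls of Pigr, Ces1g, Nr0b2, Mgat3, Mir6973b and Mfsd4a were lost, and the same 6 were lost with the acinar score. The log2 differences of the 12 falls ran from -3.61 to -0.97 as reported, from -3.43 to -0.91 without R15 2 and from -3.62 to -0.96 with the acinar score. The macrophage score removed the calls of Ces1g, Nr0b2 and Mir6973b. Sfrp5, Tmod1, Hamp2, Lmcd1 and Capn6 held in all of these fits. With Control and R15 alone in the fit, all 12 rises and 7 of the 12 falls were called. The calls of Cox7a1, Ces1g, Nr0b2, Mgat3 and Mfsd4a were lost there. With the 5 libraries that hold acinar transcripts left out (3 Control, 1 DDC, 1 R15), 1 Control library remains, assumed to vary like the other groups. In that fit 7 of the 12 rises and 0 of the 12 falls were called, yet all 24 kept their direction, the rises at 2.49 to 4.77 and the falls at -3.79 to -0.86. Over all genes, 335 of the 1048 higher and 96 of the 415 lower genes were also called with both scores.

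Ligands and antagonists of the Wnt and BMP pathways moved in both directions. Of 27 Wnt genes 4 rose and 4 fell (median 0.08), where 6.87% of all genes tested rose and 2.72% fell. The ligand genes Wnt10a (0.489 to 0.784 FPKM in Control, 2.60 to 5.30 in R15), Wnt5b (0.746 to 1.38 and 2.48 to 2.57) and Wnt7a (1.76 to 3.29 and 3.89 to 6.05) rose, and so did Tcf7. Apart from Sfrp5, the receptors Lrp5 (-0.16), Lgr4 (-0.32) and Fzd4 (-0.28) fell. In 3 of the 4 Wnt risers R15 2 was the highest R15 library, beside 439 of all 1048 genes called higher. R15 1 lay above every Control library in all 4, as in 1046 of the 1048. With both covariates 2 Wnt genes rose and 1 fell. Of 18 BMP genes 2 rose and 2 fell (median -0.04). Bmp4 stood at 1.76, 1.65, 1.72 and 1.59 FPKM in Control and at 3.71, 5.497 and 6.53 in R15 (1.19 ± 0.14), above its DDC mean of 1.47 ± 0.275. Bmp7 went the other way, from 8.08 ± 1.18 to 4.19 ± 0.648 FPKM (-0.81 ± 0.13). The number of Wnt genes that rose ran from 2 without Control 1 to 6 without Control 2, and the number that fell from 1 without R15 2 to 3. For BMP genes 3 rose without Control 2, 1 rose without R15 2, R15 3, Control 1 or Control 3, and 4 fell without Control 1.

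A part of the genes of energy metabolism fell by small amounts. Of 34 tested respiratory chain subunits 11 fell and 0 rose, with a median log2 difference of -0.25, where 2.72% of all genes tested fell. Ndufa1, of complex I, stood at 61.9 ± 7.26 FPKM in Control and 46.5 ± 1.38 in R15 (-0.40 ± 0.08, limma adjusted p = 0.015), and Cox6c, of complex IV, at 25.5 ± 3.22 and 19.1 ± 1.00. The R15 libraries lay below all Controls in 21 of the 34, and in 6.30% of all genes tested. The count of 11 called depended on single libraries. It was 0 without R15 1 and 1 without R15 2 or without Control 1. It was 14 without Control 4, 23 without Control 2 and 5 to 7 without any other library. It was also 0 with the acinar score. Of 24 glycolysis and hypoxia genes 4 fell (Aldoa by 0.46, Bnip3 by 0.30, Tpi1 by 0.29, Pfkp by 0.27; median -0.17). In all 4 the highest Control was Control 1, the library with the most acinar transcripts, beside 113 of all 415 genes called lower. R15 1 and R15 2 lay below Control 4, as in all 415. With the acinar score 0 fell. Also 0 fell without R15 1 or R15 2, 1 without Control 1, Control 3, Control 4, R15 3, DDC 1 or DDC 2, 2 without DDC 4, 3 without DDC 3 and 5 without Control 2.

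Duct transport, growth control and early response genes changed in part, beside 6.87% of all genes tested that rose and 2.72% that fell. Of 18 bile duct transport genes 3 fell, namely the exporters Abcb1a (40.4 ± 2.44 to 29.5 ± 1.82 FPKM) and Abcc3 (52.3 ± 4.77 to 30.9 ± 6.43) and the glucose carrier Slc5a1 (113 ± 14.5 to 81.4 ± 12.4), while Abcc1 rose by 0.27 (median -0.13). Without R15 2, 1 fell and 0 rose. Abcc2, the conjugate exporter that hepatocytes place on their bile canaliculi, stood at 0.781, 1.02, 0.777 and 0.588 FPKM in Control and at 7.85, 3.95 and 6.73 in R15 (1.96 ± 0.20, limma adjusted p = 0.00068). Of 21 AP-1 and immediate early genes 4 rose (median 0.63). Jun read 126, 109, 153 and 192 FPKM in Control and 321, 369 and 261 in R15 (1.15 ± 0.18), above its DDC mean of 184 ± 7.30. The early response count was 1 without R15 2, Control 1 or Control 3 and 9 without Control 4. Of 21 p53 target and cell cycle inhibitor genes 5 rose (median 0.15), Trp53 among them by 0.42. R15 2 was the highest R15 library in 4 of these 5, beside 439 of all 1048 genes called higher. R15 1 lay above every Control library in all 5, as in 1046 of the 1048. The count was 3 without R15 1, 2 with the acinar score and 1 with both.

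No gene of the cell cycle lists was called by limma. Of 36 DNA replication genes 2 were higher and 1 lower at an unadjusted p under 0.05, and limma voom on whole reads called 1 higher. Of 34 genes of G2 and mitosis, 0 reached an unadjusted p under 0.05 and voom called 0. The medians were 0.08 and -0.02. Mki67, the standard marker of cycling cells, read 1.63, 2.84, 4.25 and 1.94 FPKM in Control and 2.25, 4.06 and 1.97 in R15, with 25.2 ± 3.40 in DDC. Its log2 difference of 0.05 had a 95% interval of -0.50 to 0.60. The NF-Y genes had narrow intervals: Nfya 0.13 (-0.06 to 0.31), Nfyb -0.00 (-0.12 to 0.12) and Nfyc 0.05 (-0.05 to 0.16). The letters CCAAT, on either strand, were found in 37.7% of windows of genes called higher, 42.5% of those called lower, 37.3% of genes tested and 37.4% of the whole table. Cell identity genes Krt7 (-0.14), Sox9 (0.17) and Cftr (0.34) were not called, nor was Krt19 (-0.65 ± 0.24, limma adjusted p = 0.12).

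Serpina1b, the second of the 12 largest rises, is shown with its CCAAT letters in capitals, at chr12:103738190-103738439 on the minus strand (RefSeq, GRCm38.p6), with 1 match on each strand.
Serpina1b: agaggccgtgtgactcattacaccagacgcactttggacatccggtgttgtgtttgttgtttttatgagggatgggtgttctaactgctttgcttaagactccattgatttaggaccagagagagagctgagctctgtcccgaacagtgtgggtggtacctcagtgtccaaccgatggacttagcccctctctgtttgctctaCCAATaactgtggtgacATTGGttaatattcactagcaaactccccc

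Markers of other cell types were called in part. Of 22 macrophage genes 2 (9.09%) were called higher, where 6.87% of all genes tested were. They were Cx3cr1 (0.310 to 0.597 FPKM in Control, 1.37, 5.05 and 1.99 in R15) and Csf1r (28.9 to 40.8, and 48.9, 65.7 and 44.9). The median log2 difference over the list was 0.69 and the lowest was 0.0997. The R15 libraries lay above all Controls in 6 of the 22, and in 15.0% of all genes tested. Lyz2, the macrophage lysozyme, read 36.3, 215 and 50.6 FPKM in R15 1 to 3 and 24.5 to 36.9 in Control, and was not called (1.26 ± 0.49, limma adjusted p = 0.13). The macrophage count was 0 without Control 1, 2 without Control 2 or R15 3, and 1 without any other library. Dendritic cell genes Flt3 (0.65), Xcr1 (0.66) and Clec9a (0.55) rose among 10 tested (30%), and 0 did without R15 2, R15 3, Control 3 or Control 4. Of 4 mesothelial markers tested 2 fell, where 2.72% of all genes did, and both were called with each single library left out. They were the uroplakin genes Upk3b (3.08 ± 0.522 FPKM in Control, 1.095 ± 0.451 in R15) and Upk1b (1.69 ± 0.271 and 0.413 ± 0.146). The tested markers Msln (8.56 ± 2.01 FPKM in Control, 13.8 ± 6.01 in R15) and Gpm6a (29.8 ± 4.33 and 27.4 ± 4.45) were not called. Msln thus had a higher mean in R15. The 7 markers of that list summed to 36.7 to 49.4 FPKM in Control and 40.2 to 45.3 in R15. None of 26 acinar markers was called by limma (median -2.96), and 1 was lower at an unadjusted p under 0.05. None of 16 endothelial markers was called or reached that p (median -0.60), voom called 0 in both lists, and the list summed to 286 to 967 FPKM in Control and 153 to 418 in R15. The part of these cells in the changes of single genes was not tested beyond the fits given above.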

How the data were processed

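RNA of EpCAM-selected liver cells from 11 mice (4 Control, 4 DDC, 3 R15) was compared on 1 table of FPKM per gene and library that the authors deposited. Per the submitters' processing notes the genome build was mm10; the aligner, the counter and the use of strand were not given in the sources used here. Whole reads could be recovered from 100% of nonzero FPKM (tolerance 0.001) and came to 57728932 to 70373265 per Control and R15 library, a median of 122.5 reads per gene at an FPKM near 1. The 37 mitochondrial genes were at 0 throughout.

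Tests used log2(FPKM + 1), a scale that shrinks the fold of genes at low levels. All 11 libraries entered 1 linear model with 3 groups in limma 3.58.1 (R 4.3.3), with a mean-variance trend. Benjamini-Hochberg adjustment of the 2-sided p covered all 15264 genes (threshold 0.05). The fit was tested on simulated data.

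The comparison and its 48 gene lists were chosen with earlier results of these data known. Named were the 12 largest rises and falls among called genes with a mean of at least 5 FPKM in the higher group, no overlap and no clone name or immunoglobulin segment, up to 3 members per list by p, a fixed set of 20 genes and markers of cell types. Other called members of a list were named after their values were seen. Macrophage and acinar scores, used as covariates, were a library's mean log2(FPKM + 1) over each list. Other scalings, filters, pseudocounts, left-out libraries and limma voom on whole reads were alternatives. Of 15236 symbols tested, 10440 matched the RefSeq promoter table. Same-numbered mice did not pair. Some genes of the lists are not reported here.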

Additional observations from a re-analysis of the deposited data

Results flagged for a closer look

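The 4 Control libraries of 56 values were examined for 1 library far from the other 3, and 4 values stood out, where chance gives about 1 in 20. Pigr stood at 233.886 FPKM in Control 2 and at 429.804 to 445.708 in the other Controls. Lmcd1 stood at 26.6789 FPKM in Control 4 and at 16.3854 to 17.7026 in the others. The summed cholangiocyte markers came to 13582.3 FPKM in Control 2 and to 10985.2 to 11410.8 in the others. The summed gastric mucous and chief cell markers came to 11364.2 FPKM in Control 3 and to 80.4592 to 164.968 in the others.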

How the results depend on the processing

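Counts of genes higher and lower in R15 (1048 and 415 by limma) moved by over 1.5 times under these settings. They were 622 and 804 with median-of-ratios scaling, 247 and 70 with Control and R15 alone, 263 and 83 at an adjusted p under 0.01, and 126 and 15 at an absolute log2 difference of at least 1. Quantile normalization gave 594 higher genes, and rescaling to one total gave 253 lower ones. The counts were 672 and 239 with the macrophage score, 393 and 136 with the acinar score, 387 and 118 with both, and 9 and 1 without the 5 libraries with acinar transcripts. Single libraries left out gave 493 to 1464 higher genes, lowest without R15 1 and highest without Control 2, and 187 to 722 lower genes, lowest without R15 2 and highest without Control 2. The higher count also moved without Control 1 (558), Control 3 (655), DDC 2 (689) and R15 2 (562), and the lower count without Control 1 (261), DDC 1 (275), DDC 2 (261) and R15 1 (192). Genes whose groups do not overlap numbered 1404 above and 1779 below with median-of-ratios scaling. They numbered 2595 to 3338 above and 1176 to 1482 below with a Control or R15 library left out. Leaving a library out cannot lower these numbers, so their rise was fixed in advance. The replicate number as a replicate block gave 486 higher and 207 lower genes. Deviations of same-numbered Control and R15 mice correlated at -0.18, -0.28 and 0.04, so the mice share only a number. For the 96 named genes that were called, 2148 values under alternatives kept the call, 711 lost it and none changed direction. For the 68 that were not called, 27 values gained a call and 1992 did not. With 3 R15 mice, unadjusted p under 0.05 was reached by 4393 genes, and limma voom on whole reads called 1196 higher and 436 lower genes.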

Other observations

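The 5 genes of this paragraph were chosen after their values were seen and stand for no wider group. Of 10 B and plasma cell markers tested, limma called 0 higher and 1 lower, and 0 were higher at an unadjusted p under 0.05. Of 4 T and NK cell markers limma called 0, and 2 were higher at that unadjusted p. In both lists voom called 0 higher. Ltb, which encodes lymphotoxin beta, stood at 9.48, 15.0, 10.3 and 8.54 FPKM in Control and at 30.0, 39.9 and 34.8 in R15 (log2 difference 1.62 ± 0.18, limma adjusted p = 0.00094), with 50.4 ± 7.64 in DDC. The cytokine subunit gene Il23a stood at 0.996 ± 0.411 FPKM in Control and 4.69 ± 1.30 in R15 (1.51 ± 0.20). Madcam1, an adhesion molecule for gut-homing lymphocytes, was listed at 0 in all 4 Control libraries and at 2.11, 3.26 and 1.11 FPKM in R15 1 to 3. Ccr2, the receptor of the Ccl2 product, stood at 0.487 to 1.41 FPKM in Control and at 2.10, 4.99 and 3.19 in R15, highest in the library with macrophage markers. The immunoglobulin segment Ighv14-1 stood at 0 to 0.283 FPKM in Control and at 8.69, 4.00 and 16.9 in R15.

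Among genes too low for the rule on the largest falls, Scnn1b, a subunit of the epithelial sodium channel, stood at 2.16 to 3.36 FPKM in Control and at 0.653, 0.572 and 0.598 in R15 (-1.22 ± 0.11, limma adjusted p = 0.00027). Dcx, a microtubule protein best known from migrating neurons, stood at 2.79 ± 0.779 and 0.678 ± 0.257 FPKM (-1.16 ± 0.17). Neither gene overlapped between groups, and both had DDC means below those of R15, 0.102 and 0.456 FPKM.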
